A study of Mus musculus with 18 samples.

Results

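Olig1, Olig2, Sox10, Sox8, Nkx2-2, Nkx6-2, Myrf, Pdgfra, Cspg4 and Gpr17 are 7 transcription factors and 3 surface proteins of the oligodendrocyte lineage. They were chosen by name, as the rows of the expression table that carry these 10 symbols, out of 28852 genes listed. Bulk RNA sequencing had measured them in mouse cerebral cortex, in 18 libraries. Each of 6 groups held 3 libraries: mice labelled Alg13 knockout at 1, 7 and 30 days after birth, and mice labelled wild type at the same ages. The series asks what the loss of Alg13, which encodes part of an enzyme early in N-glycan synthesis, does to cortical interneurons. The labels give no allele design, strain or sex, and do not name separate animals as replicates, so p-values measure a spread between libraries that may be technical.

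Oligodendrocyte precursors carry the platelet-derived growth factor receptor alpha, encoded by Pdgfra, and the proteoglycan NG2, encoded by Cspg4. Olig1, Olig2, Sox10, Sox8, Nkx2-2 and Nkx6-2 act at steps between the choice of this lineage and its maturation, Gpr17 marks committed precursors on the way to differentiation, and Myrf switches on the myelin genes. In the mouse forebrain precursors spread through the cortex around birth, and most cortical myelin forms in the weeks that follow.

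Values are FPKM, fragments per length of transcript and per mapped fragments of the library, which take length into account and can be set side by side between genes. Tests used limma on log2(FPKM + 1) over all 18 libraries, with Benjamini-Hochberg adjustment over the 13347 genes that reached 1 FPKM in at least 3 libraries and a threshold of 0.05. Of the 10 genes, 9 entered these tests; Nkx2-2 stayed under 1 FPKM in every library. Relative depth of the libraries ranged from 0.900 to 1.22, and the absolute depth is unknown. Alg13 itself measured 2.50, 2.57 and 1.04 FPKM in knockout-labelled and 3.27, 1.93 and 2.79 FPKM in wild type libraries at day 1. On the later days Alg13 averaged higher in knockout-labelled cortex, at 2.35 against 1.80 FPKM at day 7 and 1.45 against 1.00 FPKM at day 30. It passed the test on none of the 3 days (adjusted p = 0.380, 1.00 and 1.00), so its RNA does not check the genotype labels. Wild type day 1 replicate 3 stood apart, with 35774 FPKM summed over 7 salivary gland genes against at most 14.7 FPKM in any other library, and with 544 FPKM over 10 meningeal and fibroblast genes against 72.0 to 190 FPKM elsewhere. That library, knockout day 1 replicate 3 and wild type day 30 replicate 2 held RNA of Xist, which females express, together with that of the Y-linked Ddx3y. Wild type day 1 replicate 2 held Xist at 157 FPKM and Ddx3y at 0.0309 FPKM, and the other 14 libraries held Ddx3y with Xist at most at 0.0650 FPKM.

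By mean FPKM over the 18 libraries, Olig1 was the most abundant of the 10 at 31.5 FPKM, above 86.3% of the genes tested. It was followed by Gpr17 at 15.3, Pdgfra at 11.8, Olig2 at 9.31, Sox8 at 9.05 and Sox10 at 6.25 FPKM. Cspg4 at 2.44, Myrf at 1.63, Nkx6-2 at 0.497 and Nkx2-2 at 0.3997 FPKM were the least abundant. Myrf and Nkx6-2 reached their levels late, at day 30, whereas Cspg4 was low on all 3 days. In the annotation within the authors' deposited table, 6 of the 10 carried the term oligodendrocyte differentiation, which 52 genes of the table share; Olig1, Pdgfra, Cspg4 and Gpr17 did not.

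**Figure D1:**
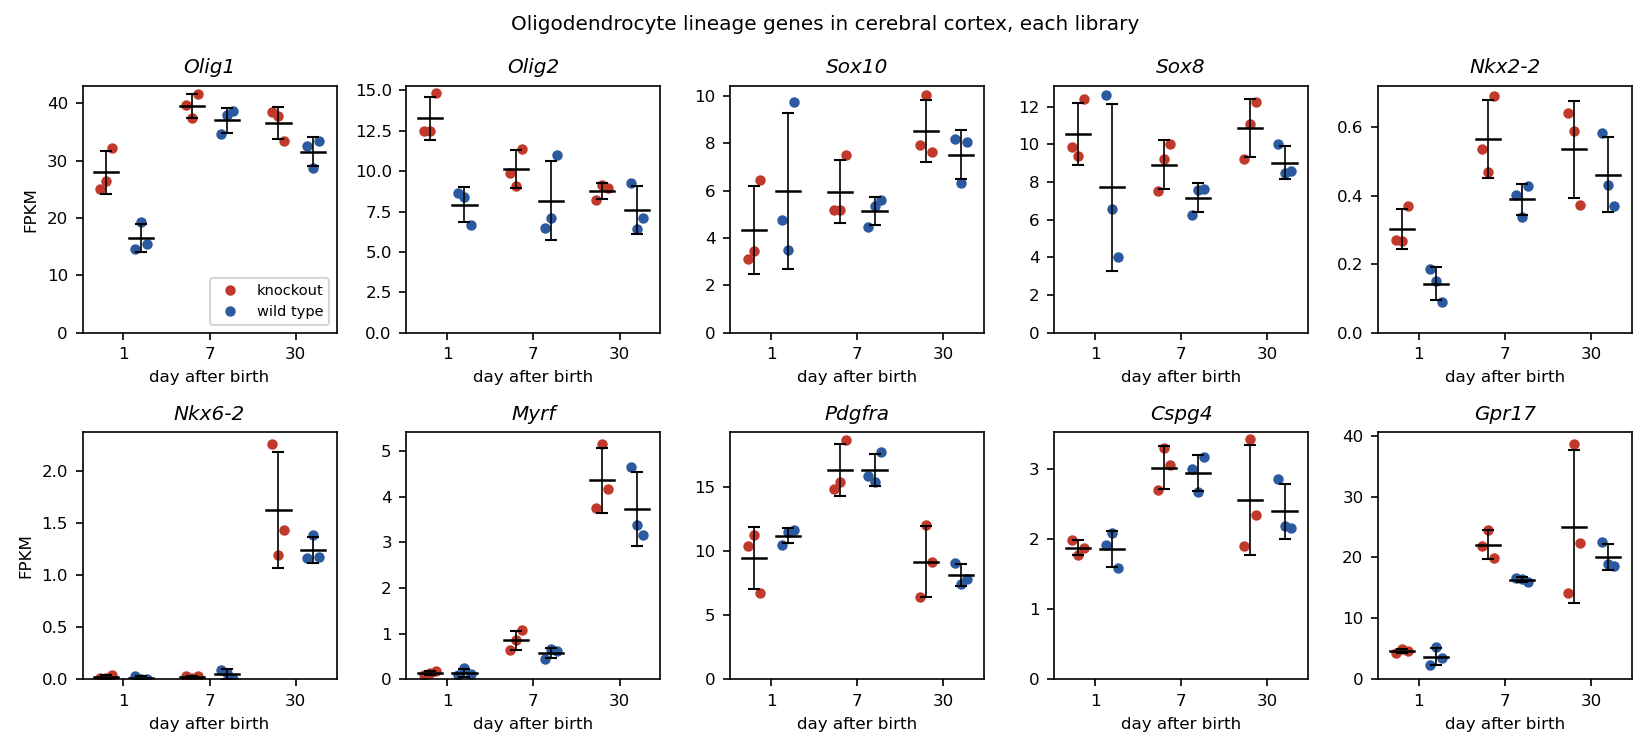
FPKM (y axis, from 0) of each of the 10 genes by day after birth (x axis) in knockout-labelled (red) and wild type (blue) cortex; points are single libraries, and bars the mean ± SD of 3 libraries. Gpr17, Pdgfra and Cspg4 were higher at day 7 than at day 1 in both genotypes, and Myrf and Nkx6-2 were highest at day 30. Olig1 and Olig2 did not overlap between genotypes at day 1, as 14.8% of all genes tested did not, and Olig1 alone was called. Nkx2-2, which was under the limit for the tests, did not overlap either.

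Between days 1 and 7 after birth, the precursor receptor gene Pdgfra, the proteoglycan gene Cspg4, the receptor gene Gpr17 and the factor genes Olig1 and Myrf rose in both genotypes, between 1.42-fold for Olig1 in knockout-labelled cortex and 6.20-fold for Myrf there. Between days 7 and 30, Pdgfra fell while Myrf and Nkx6-2 rose, again in both genotypes. Olig2, Sox10 and Sox8 passed the test at neither step in the fit of all 18 libraries. Between genotypes, Olig1 at day 1 was the only call, higher in knockout-labelled cortex, and it was lost without one of the knockout libraries.

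Olig1 and Olig2 encode the basic helix-loop-helix factors of the lineage. Olig1, which promotes maturation of the lineage, measured 25.1, 26.5 and 32.3 FPKM at day 1, 39.7, 37.4 and 41.6 FPKM at day 7, and 38.5, 37.9 and 33.5 FPKM at day 30 in knockout-labelled libraries. In wild type libraries it measured 14.6, 19.3 and 15.5 FPKM at day 1, 34.6, 37.9 and 38.6 FPKM at day 7, and 32.6, 28.7 and 33.5 FPKM at day 30. All day 7 values lay above all day 1 values of the same genotype, and the day 1 values of the wild type libraries were the lowest of all. Knockout-labelled cortex averaged 39.6 ± 2.10 FPKM at day 7 against 28.0 ± 3.81 FPKM at day 1 (SD, n = 3 each), a 1.42-fold rise (log2 difference 0.49, SE 0.119, adjusted p = 0.00267 in limma). Wild type cortex averaged 37.0 ± 2.16 FPKM at day 7 against 16.5 ± 2.47 FPKM at day 1, a rise of 2.25-fold (log2 difference 1.13, SE 0.119, adjusted p = 2.01e-06). In a bulk sample, more cells of a type and more RNA per cell cannot be told apart. Between day 30 and day 7 Olig1 did not pass the test in knockout-labelled (log2 difference -0.11, adjusted p = 0.489) or wild type cortex (-0.22, adjusted p = 0.127).

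Olig2, which specifies the lineage, did not share this course. Its values were 12.5, 12.5 and 14.8 FPKM at day 1, 9.89, 9.10 and 11.4 FPKM at day 7, and 8.23, 9.16 and 8.95 FPKM at day 30 in knockout-labelled libraries. Wild type libraries gave 8.67, 8.39 and 6.66 FPKM at day 1, 6.47, 7.08 and 10.99 FPKM at day 7, and 9.27, 6.45 and 7.07 FPKM at day 30. The highest Olig2 values were those of knockout day 1, where all 3 libraries exceeded every other library in the series, and wild type day 7 replicate 3 lay far above the other 2 of its group. At day 7 against day 1 the log2 difference was -0.36 in knockout-labelled cortex (95% interval -0.71 to -0.0049, adjusted p = 0.0865) and 0.019 in wild type cortex (95% interval -0.34 to 0.37, adjusted p = 0.938). Neither passed the test, nor did day 30 against day 7 (adjusted p = 0.418 in knockout-labelled and 0.724 in wild type cortex). The knockout-labelled fall at day 7 was called in a fit of the compared groups alone (adjusted p = 0.0350) and without wild type day 7 replicate 3 (0.0398). In the fit of all 18 libraries 48.7% of all genes were called at this step, and the share in those other fits is not reported here. The ratio of Olig1 to Olig2 within a library was 2.01 to 2.18 at day 1, 3.65 to 4.11 at day 7 and 3.74 to 4.67 at day 30 in knockout-labelled libraries. In wild type libraries it was 1.68 to 2.33 at day 1, 3.52 to 5.35 at day 7 and 3.52 to 4.73 at day 30. Olig1 and Olig2 lie close together on chromosome 16, with the gene model Gm52261 (mean at most 0.0138 FPKM in either day 1 group) between them.

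Sox10, the SoxE factor that keeps cells in the lineage and acts on myelin genes, measured 3.11, 3.45 and 6.46 FPKM at day 1, 5.20, 5.17 and 7.51 FPKM at day 7, and 7.93, 10.04 and 7.64 FPKM at day 30 in knockout-labelled libraries. Its wild type values were 4.77, 3.50 and 9.73 FPKM at day 1, 4.45, 5.36 and 5.59 FPKM at day 7, and 8.17, 6.33 and 8.07 FPKM at day 30. The day 1 libraries spread the most, and each replicate 3, of knockout and of wild type, was the highest of its group. That wild type library is the one with the high salivary gland genes, whose part in its Sox10 value was not tested. Mean Sox10 was 8.54 ± 1.31 FPKM at day 30 and 5.96 ± 1.34 FPKM at day 7 in knockout-labelled cortex, and 7.52 ± 1.04 FPKM at day 30 and 5.14 ± 0.602 FPKM at day 7 in wild type cortex (SD, n = 3 each). The groups of both genotypes did not overlap, but the difference did not pass the test in either (log2 difference 0.46, adjusted p = 0.189 in knockout-labelled; 0.47, adjusted p = 0.156 in wild type cortex). In a fit of the compared groups alone it was called in both (adjusted p = 0.0417 in knockout-labelled and 0.00654 in wild type cortex). The share of all genes called in those fits is not reported here. At this step 59.5% of all genes in knockout-labelled and 74% in wild type cortex did not overlap. Sox8, a closely related factor that also acts in glia, stayed between 3.99 and 12.6 FPKM over the 18 libraries, and both ends of that range lay in wild type day 1 libraries. None of its 4 age comparisons passed the test, with log2 differences of -0.22 to 0.30.

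The homeodomain factors differed from each other in timing. Nkx2-2, which acts at the start of differentiation, measured 0.269, 0.269 and 0.371 FPKM at day 1, 0.537, 0.470 and 0.691 FPKM at day 7, and 0.642, 0.590 and 0.373 FPKM at day 30 in knockout-labelled libraries. In wild type libraries Nkx2-2 measured 0.186, 0.151 and 0.0904 FPKM at day 1, 0.402, 0.339 and 0.428 FPKM at day 7, and 0.584, 0.432 and 0.370 FPKM at day 30. Its day 7 values lay above its day 1 values in both genotypes, all under the limit for the tests. In the fit of all 28852 genes without that limit, the log2 difference of day 7 against day 1 was 0.26 (adjusted p = 0.0212) in knockout-labelled and 0.28 (adjusted p = 0.0144) in wild type cortex; with a pseudocount of 0.1 the adjusted p in knockout-labelled cortex was 0.0605. Nkx6-2, a factor of maturing oligodendrocytes, was at 2.26, 1.20 and 1.43 FPKM at day 30 in knockout-labelled libraries and at 1.17, 1.39 and 1.18 FPKM in wild type libraries. At days 1 and 7 no library reached 0.1 FPKM, and 3 wild type libraries listed it at 0. The rise at day 30 against day 7 passed the test in both genotypes (log2 difference 1.34, SE 0.122, adjusted p = 6.09e-07 in knockout-labelled; log2 difference 1.10, SE 0.122, adjusted p = 2.17e-06 in wild type cortex). Nkx6-2 entered the tests through its 6 day 30 libraries alone, and Myrf through these and 1 at day 7, so some difference between ages was built into their selection.

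Myrf, the transcription factor that switches on myelin genes, measured 0.0918, 0.144 and 0.178 FPKM at day 1, 0.645, 0.851 and 1.07 FPKM at day 7, and 3.76, 5.15 and 4.17 FPKM at day 30 in knockout-labelled libraries. Wild type values were 0.0789, 0.233 and 0.102 FPKM at day 1, 0.448, 0.663 and 0.622 FPKM at day 7, and 4.66, 3.38 and 3.17 FPKM at day 30. No day overlapped with another in either genotype. At day 7 it averaged 0.854 ± 0.211 FPKM against 0.138 ± 0.0432 FPKM at day 1 in knockout-labelled cortex (6.20-fold; log2 difference 0.70, SE 0.137, adjusted p = 5.68e-04). Wild type cortex held 0.578 ± 0.114 FPKM at day 7 against 0.138 ± 0.0833 FPKM at day 1 (4.19-fold; log2 difference 0.47, SE 0.137, adjusted p = 0.00945). The wild type call was lost with quantile normalization (0.33, adjusted p = 0.0615). Day 30 was 5.11-fold above day 7 in knockout-labelled cortex (log2 difference 1.53, SE 0.137, adjusted p = 5.30e-07) and 6.47-fold above it in wild type cortex (log2 difference 1.58, SE 0.137, adjusted p = 1.70e-07). Relative to Olig2 in the same library, Myrf stood at 0.00735 to 0.0120 at day 1, 0.0652 to 0.0936 at day 7 and 0.456 to 0.563 at day 30 in knockout-labelled libraries. Wild type libraries gave 0.00910 to 0.0278, 0.0566 to 0.0936 and 0.448 to 0.525 for the same ratio.

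Of the surface proteins, Pdgfra, the receptor through which the growth factor PDGF drives precursor division, peaked at day 7. It measured 10.4, 11.3 and 6.74 FPKM at day 1, 14.9, 15.4 and 18.6 FPKM at day 7, and 6.41, 11.98 and 9.10 FPKM at day 30 in knockout-labelled libraries. In wild type libraries it was at 10.5, 11.5 and 11.6 FPKM at day 1, 15.8, 15.4 and 17.7 FPKM at day 7, and 9.07, 7.39 and 7.84 FPKM at day 30. Day 7 exceeded both other days without overlap in both genotypes, and knockout day 1 replicate 3 and knockout day 30 replicate 1 were the lowest libraries. At day 7 against day 1 it rose 1.72-fold in knockout-labelled cortex (log2 difference 0.75, SE 0.186, adjusted p = 0.00342) and 1.46-fold in wild type cortex (log2 difference 0.50, SE 0.186, adjusted p = 0.0335). The wild type rise lost its call without the limit on low FPKM (0.0716), with libraries scaled to one total (0.0594) and in 5 of 18 fits that left out a library (adjusted p up to 0.0992). By day 30 Pdgfra fell to 9.16 ± 2.79 FPKM, against 16.3 ± 2.03 FPKM at day 7, in knockout-labelled cortex (log2 difference -0.80, SE 0.186, adjusted p = 0.00310). In wild type cortex it fell to 8.10 ± 0.871 FPKM, against 16.3 ± 1.26 FPKM at day 7 (log2 difference -0.93, SE 0.186, adjusted p = 6.00e-04).

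Cspg4, whose product NG2 coats precursors and also pericytes, followed at a lower level. Knockout-labelled libraries held 1.98, 1.77 and 1.87 FPKM at day 1, 2.69, 3.29 and 3.05 FPKM at day 7, and 1.90, 3.42 and 2.33 FPKM at day 30. Wild type libraries held 1.91, 2.08 and 1.58 FPKM at day 1, 2.99, 2.67 and 3.16 FPKM at day 7, and 2.84, 2.18 and 2.15 FPKM at day 30. Day 7 was above day 1 without overlap, 1.61-fold in knockout-labelled (log2 difference 0.48, SE 0.143, adjusted p = 0.0108) and 1.59-fold in wild type cortex (log2 difference 0.47, SE 0.143, adjusted p = 0.0128). Day 30 against day 7 did not pass the test (log2 difference -0.20, adjusted p = 0.298 in knockout-labelled; -0.22, adjusted p = 0.212 in wild type cortex). Without knockout day 30 replicate 2, the highest of its group, the knockout-labelled fall was called (log2 difference -0.37, adjusted p = 0.0411). A sum over 8 pericyte markers was 50.7 to 62.0 FPKM at day 1, 98.8 to 120 FPKM at day 7 and 137 to 146 FPKM at day 30 in knockout-labelled libraries. The same sum was 41.9 to 71.4 FPKM at day 1, 109 to 117 FPKM at day 7 and 125 to 133 FPKM at day 30 in wild type libraries, and its part in the Cspg4 values was not tested. Of the 8, 2 were called higher at day 7 against day 1 in knockout-labelled and 3 in wild type cortex and none lower (median log2 differences 0.33 and 0.055, beside 19.3% and 20.9% of all genes called higher). Rgs5 was the largest single part of the sum at day 7, at 54.5 to 67.6 FPKM at day 7 and 18.1 to 31.7 FPKM at day 1 in knockout-labelled and 58.1 to 60.7 and 16.7 to 27.1 FPKM in wild type libraries, while Pdgfrb, a receptor of pericytes, stayed between 3.93 and 7.46 FPKM in all 18.

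Gpr17, a G protein-coupled receptor of committed precursors, had the largest rise of the 9 tested between days 1 and 7 on the log2(FPKM + 1) scale, though not by ratio of means. It measured 4.23, 5.01 and 4.58 FPKM at day 1, 21.8, 24.6 and 19.9 FPKM at day 7, and 14.1, 38.7 and 22.4 FPKM at day 30 in knockout-labelled libraries. Wild type libraries gave 2.39, 5.21 and 3.45 FPKM at day 1, 16.6, 16.5 and 15.9 FPKM at day 7, and 22.5, 18.9 and 18.6 FPKM at day 30. Every day 7 and day 30 library exceeded every day 1 library, and knockout day 30 replicate 2 was the highest of all. The rise at day 7 against day 1 was 4.79-fold in knockout-labelled cortex (log2 difference 2.04, SE 0.257, adjusted p = 1.14e-05) and 4.43-fold in wild type cortex (log2 difference 1.93, SE 0.257, adjusted p = 1.95e-05). Between days 30 and 7 the test was not passed (adjusted p = 0.861 in knockout-labelled and 0.389 in wild type cortex). The ratio of Gpr17 to Pdgfra was 0.409 to 0.680 at day 1, 1.07 to 1.60 at day 7 and 2.20 to 3.23 at day 30 in knockout-labelled libraries. In wild type libraries it was 0.228 to 0.454, 0.896 to 1.07 and 2.37 to 2.56 on the same days.

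**Figure D2:**
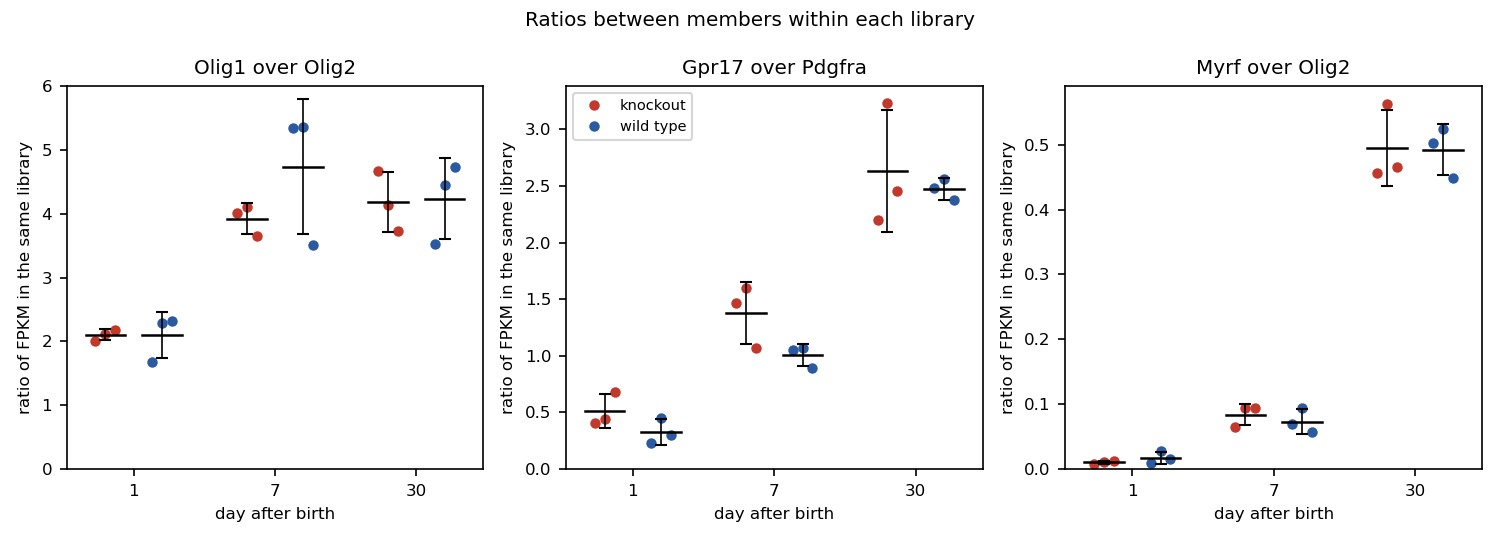
Ratio of FPKM within each library (y axis, from 0) by day after birth (x axis) for 3 pairs of genes; points are single libraries of knockout-labelled (red) and wild type (blue) cortex, bars the mean ± SD of 3. Gpr17 over Pdgfra and Myrf over Olig2 are higher at each later day without overlap between days, and Olig1 over Olig2 is higher at day 7 than at day 1.

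In all, 5 of the 9 genes tested were called at day 7 against day 1 in knockout-labelled cortex, all of them higher, and the same 5 in wild type cortex: Olig1, Myrf, Pdgfra, Cspg4 and Gpr17. Over all genes tested, 48.7% were called in knockout-labelled and 48.9% in wild type cortex, and 19.3% and 20.9% were called higher. The groups did not overlap for 6 of the 9 in knockout-labelled and for 5 in wild type cortex, where 63% and 51.8% of all genes did not overlap. At day 30 against day 7, Myrf and Nkx6-2 were called higher and Pdgfra lower in both genotypes, against backgrounds of 15.9% higher and 22% lower in knockout-labelled and 20.8% higher and 29.6% lower in wild type cortex (called in all, 37.9% and 50.4%). Nkx6-2 entered the tests only through day 30 libraries and Myrf nearly so, thus their rise was in part built into the selection. Without overlap lay 4 of the 9 in knockout-labelled and 7 in wild type cortex, where 59.5% and 74% of all genes were without overlap. The median log2 difference of the 9 at day 7 against day 1 was 0.48 in knockout-labelled and 0.47 in wild type cortex, beside -0.08 and -0.10 over all genes. At day 30 against day 7 it was 0.07 and 0.27, beside -0.05 and -0.08 over all genes. Shares near the background, as at day 30, say nothing particular about the 9 genes. A fit of the compared groups alone called 7 of them rather than 3 in wild type cortex, the same 7 that were without overlap. The share of all genes called in that fit is not reported here, so this count says nothing particular about them either. Without wild type day 1 replicate 3 the same 5 were called at day 7 against day 1 in wild type cortex (adjusted p at most 0.0375). Without knockout day 1 replicate 3 the same 5 and Sox10 (0.0481) were called in knockout-labelled cortex, and without wild type day 30 replicate 2 the same 3 at day 30 against day 7. Wild type day 7 replicate 3 held 44.5 FPKM over the 8 olfactory bulb genes of a list written after the libraries had been seen, against 15.4 and 15.9 FPKM in the other 2. Without it Pdgfra alone of the 5 lost its call (adjusted p = 0.0992).

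**Figure D3:**
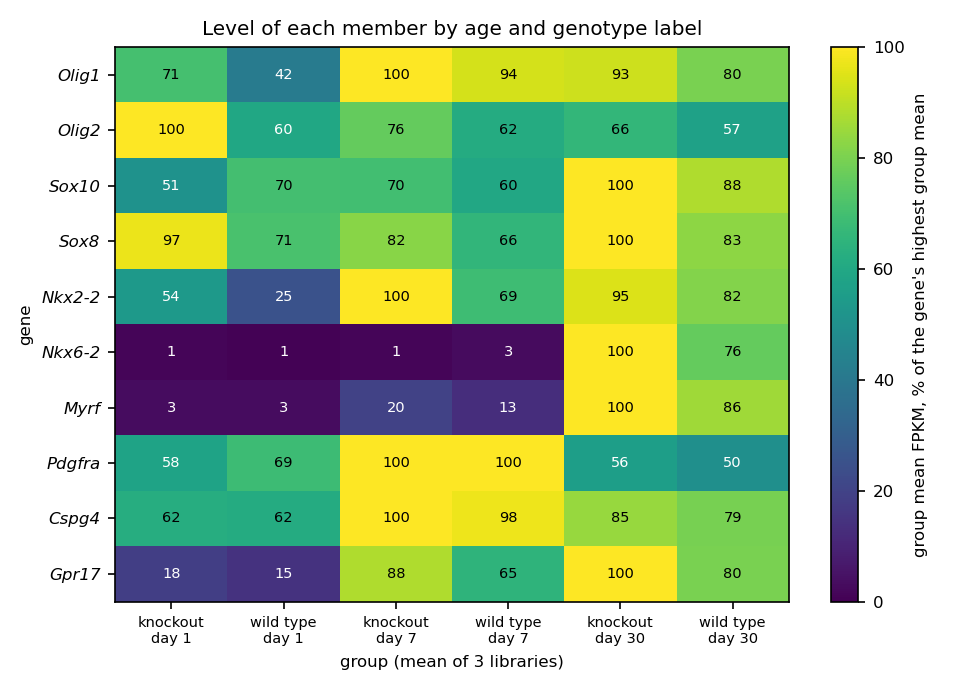
Mean FPKM of 3 libraries for each gene (rows) in knockout-labelled and wild type cortex at days 1, 7 and 30 (columns), as a percentage of that gene's highest group mean (colour and printed value). Nkx6-2 and Myrf are under 20% until day 30, Pdgfra is highest at day 7 in both genotypes, and Olig2 is highest in knockout day 1.

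In the colour map of group means Pdgfra has its maximum at day 7, and Nkx6-2 and Myrf have theirs at day 30, in both genotypes. Sequence 5′ of the start was in hand for 6 of the 10 genes, as windows of 300 bases around the RefSeq start of GRCm38.p6, which is not the build of the table; Olig1, Sox10, Myrf and Gpr17 had no window. Printed here are Pdgfra and Cspg4, whose group means were highest at day 7, Nkx6-2, which rose late, and Olig2, which was highest in knockout day 1, with each CANNTG, the E-box core that helix-loop-helix factors bind, in capitals.
Pdgfra: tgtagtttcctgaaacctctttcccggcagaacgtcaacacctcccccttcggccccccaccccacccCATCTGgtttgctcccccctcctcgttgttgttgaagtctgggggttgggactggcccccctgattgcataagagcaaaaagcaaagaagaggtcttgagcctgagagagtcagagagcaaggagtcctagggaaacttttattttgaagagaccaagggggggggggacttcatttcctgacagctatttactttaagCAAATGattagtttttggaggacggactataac
Cspg4: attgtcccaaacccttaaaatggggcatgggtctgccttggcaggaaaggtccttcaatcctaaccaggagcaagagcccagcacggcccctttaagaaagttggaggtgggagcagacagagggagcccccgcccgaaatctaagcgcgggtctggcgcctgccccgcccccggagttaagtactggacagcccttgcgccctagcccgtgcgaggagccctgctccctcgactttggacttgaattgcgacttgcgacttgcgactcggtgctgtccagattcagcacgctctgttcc
Nkx6-2: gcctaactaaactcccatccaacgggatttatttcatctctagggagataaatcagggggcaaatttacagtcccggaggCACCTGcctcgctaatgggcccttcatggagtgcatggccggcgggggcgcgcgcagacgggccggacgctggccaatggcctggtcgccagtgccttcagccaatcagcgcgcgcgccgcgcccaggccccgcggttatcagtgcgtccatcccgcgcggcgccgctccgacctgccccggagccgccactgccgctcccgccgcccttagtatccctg
Olig2: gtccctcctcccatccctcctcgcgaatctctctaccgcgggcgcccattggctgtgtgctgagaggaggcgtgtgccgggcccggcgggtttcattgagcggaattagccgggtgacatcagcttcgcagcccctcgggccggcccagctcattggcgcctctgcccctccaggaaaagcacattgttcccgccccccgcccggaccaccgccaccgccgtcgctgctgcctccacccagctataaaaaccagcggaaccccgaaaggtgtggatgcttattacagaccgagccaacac
These windows are, 5′ to 3′ on the strand of the gene, chr5:75152001-75152300 (+) for Pdgfra, chr9:56864854-56865153 (+) for Cspg4, chr7:139582748-139583047 (-) for Nkx6-2 and chr16:91225300-91225599 (+) for Olig2. CANNTG, which reads alike on both strands and includes CAGCTG, occurred in 4 of the 6 windows (Nkx2-2, Nkx6-2, Pdgfra and Sox8) and in 72.3% of 32851 mouse windows of the same length. The Pdgfra window held 2 such cores and the Nkx6-2 window 1, and the Cspg4 and Olig2 windows held none of these letters. Searched on both strands, GGGCGG was in 5 of the 6 windows, all but Pdgfra, and in 35.7% of all windows. TATAAA was in that of Olig2 alone and in 13.6% of all windows. ACAATG, a core of Sox factors, was likewise in that of Olig2 and in 12.6% of all. ACAAAG and CAGCTG were in none of the 6 and in 18.7% and 16.3% of all windows, and CCAAT was in those of Nkx6-2 and Olig2 and in 37.4% of all. GC content of the 6 windows ran from 51% in Pdgfra to 66.7% in Nkx6-2, beside a median of 52.7% over all windows.

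Other genes of the lineage, listed by stage, gave a frame for these courses. Of 14 further precursor genes, 8 were called higher and 2 lower at day 7 against day 1 in knockout-labelled cortex, and 8 higher and 1 lower in wild type cortex. Over all genes tested, 19.3% were called higher and 29.4% lower in knockout-labelled cortex, and 20.9% and 28% in wild type cortex. Susd5, another precursor gene, averaged 3.99 ± 1.33 FPKM at day 7 against 0.0414 ± 0.0231 FPKM at day 1 in knockout-labelled cortex (log2 difference 2.22, adjusted p = 2.89e-06). These day 1 libraries lay under the limit for the tests, so some of its rise was built into its selection. The proteoglycan gene Vcan fell in that comparison (log2 difference -1.26, adjusted p = 4.34e-04). At day 30 against day 7, 5 of the 14 were called lower and 2 higher in knockout-labelled cortex, and 7 lower and 2 higher in wild type cortex. The shares of all genes called lower and higher at this step were 22% and 15.9% in knockout-labelled and 29.6% and 20.8% in wild type cortex, so 2 of 14 higher lies at or under the background. Emid1, a gene enriched in precursors, fell in both (log2 difference -1.45, adjusted p = 1.14e-05 in knockout-labelled; log2 difference -2.13, adjusted p = 1.08e-07 in wild type). Of 10 genes of newly formed oligodendrocytes, 5 were called higher and 3 lower at day 7 against day 1 in knockout-labelled cortex, and 4 higher and 2 lower in wild type cortex. At day 30 against day 7, 3 of the 10 were called higher and 4 lower in knockout-labelled cortex, and 3 higher and 5 lower in wild type cortex, so the list had no one direction. Bcas1, one of the 10, rose at both steps, to 10.9 ± 3.00 FPKM at day 7 and 34.3 ± 5.67 FPKM at day 30 in knockout-labelled cortex (log2 difference 1.97, adjusted p = 7.52e-07; then log2 difference 1.59, adjusted p = 6.29e-06). In wild type cortex it was at 6.80 ± 0.916 and 29.7 ± 5.18 FPKM on those days (log2 difference 2.01, adjusted p = 5.20e-07; then log2 difference 1.97, adjusted p = 3.27e-07). Of 22 myelin and mature oligodendrocyte genes, 21 were called higher at day 30 against day 7 in each genotype, with median log2 differences of 2.31 in knockout-labelled and 2.27 in wild type cortex. Opalin, 1 of the 22, was at most at 0.0596 FPKM at days 1 and 7 and at least at 4.76 FPKM at day 30. It entered the tests through its day 30 libraries alone, so this count was in part built into the selection. Of 15 other regulators of the lineage tested, none was called higher at day 7 against day 1, and 8 were called lower in knockout-labelled and 9 in wild type cortex. Of 18 signalling genes tested, 5 were called higher and 7 lower at day 7 against day 1 in knockout-labelled cortex, and 4 higher and 10 lower in wild type cortex. At day 30 against day 7, 2 were called higher and 4 lower in each genotype. Among them the chemokine receptor gene Cxcr4 fell at both steps in both genotypes and the FGF receptor gene Fgfr3, which is also an astrocyte marker, rose at both (day 7 against day 1, log2 difference 1.24, adjusted p = 8.78e-06 in knockout-labelled; log2 difference 1.34, adjusted p = 4.20e-06 in wild type).

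Knockout and wild type were compared at each day. At day 1 Olig1 was 1.70-fold higher in knockout-labelled cortex, at 28.0 ± 3.81 FPKM against 16.5 ± 2.47 FPKM in wild type cortex (SD, n = 3 each). All 3 knockout-labelled libraries exceeded all 3 wild type libraries, and the difference passed the test (log2 difference 0.73, SE 0.119, adjusted p = 0.0126 in limma). Its neighbour Olig2 was at 13.3 ± 1.34 FPKM against 7.91 ± 1.09 FPKM, 1.68-fold, likewise without overlap, but missed the threshold (log2 difference 0.68, SE 0.168, adjusted p = 0.0614). Olig1 was thus 1 of 9 genes called, where 0.517% of all genes were called and 0.36% were called higher. Groups did not overlap for 2 of the 9, both higher in knockout-labelled libraries, and for 14.8% of all genes (8.92% higher). The ratio of Olig1 to Olig2 was 2.10 in knockout-labelled and 2.10 in wild type day 1 libraries on average. Across the remaining neighbourhood, Ifnar2, the nearest tested gene on the Olig1 side, averaged 3.03 ± 0.199 FPKM in knockout-labelled and 3.89 ± 0.606 FPKM in wild type cortex (SD, n = 3 each). Nkx2-2 did not overlap either, at 0.269, 0.269 and 0.371 FPKM in knockout-labelled and 0.186, 0.151 and 0.0904 FPKM in wild type libraries, under the limit for the tests; without that limit its adjusted p was 0.294.

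The Olig1 call at day 1 was lost without knockout day 1 replicate 3 (log2 difference 0.63, adjusted p = 0.0646), without both day 1 libraries numbered 3 (0.59, adjusted p = 0.0526), and in a fit of the 6 day 1 libraries alone (adjusted p = 0.720). In that last fit none of the 13347 genes was called, and Olig1 and Olig2 had an unadjusted p under 0.05. The share of all genes with an unadjusted p under 0.05 in that fit is not reported here, so this adds nothing to the call. Olig2 passed the threshold without wild type day 1 replicate 2 (log2 difference 0.72, adjusted p = 0.0284) and without wild type day 7 replicate 3 (0.68, adjusted p = 0.0468). Knockout day 1 replicate 3 held the highest Olig1, Olig2 and Sox10 and the lowest Pdgfra of its group. Without wild type day 1 replicate 3, the library with the high salivary gland genes, the Olig1 difference was 0.69, adjusted p = 0.0174, and that of Olig2 0.58, adjusted p = 0.0849. In the lists of the lineage at day 1, 9 of 22 myelin genes were above 0 (median log2 difference -0.0064). Above 0 were also 8 of 14 further precursor genes (0.032), 8 of 15 other regulators (0.0070) and 8 of 10 newly formed genes (0.092). Of 18 signalling genes 7 were above 0 (-0.079), and no gene of these lists was called. Marker lists of other cell types were set beside this comparison. Of 10 astrocyte markers 7 were above 0 and 1 was called higher (median log2 difference 0.37; summed 93.8 to 105 FPKM in knockout-labelled and 54.1 to 85.4 FPKM in wild type day 1 libraries). Of 8 neuron markers all were above 0 and 1 was called higher (median 0.42; 1559 to 1861 FPKM in knockout-labelled and 1068 to 1835 FPKM in wild type libraries). Of 9 radial glia and progenitor markers 5 were above 0 and none was called (median 0.34; 540 to 853 FPKM in knockout-labelled and 430 to 499 FPKM in wild type libraries). The meningeal and fibroblast, pericyte, microglia and salivary gland lists went the other way, with medians under 0 and no gene called. Above 0 were 1 of 10 meningeal and fibroblast genes, 3 of 8 pericyte markers (median -0.18) and 3 of 8 microglia markers (median -0.095). Of 6 salivary gland genes tested 0 were above 0 (median -4.03). Among the day 1 libraries, wild type replicate 3 held the highest sum of each of these lists. The olfactory bulb genes summed to 54.1, 46.8 and 90.9 FPKM in knockout-labelled and 66.1, 42.3 and 24.1 FPKM in wild type day 1 libraries. The part of these cells in the Olig1 and Olig2 values was not tested.

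**Figure D4:**
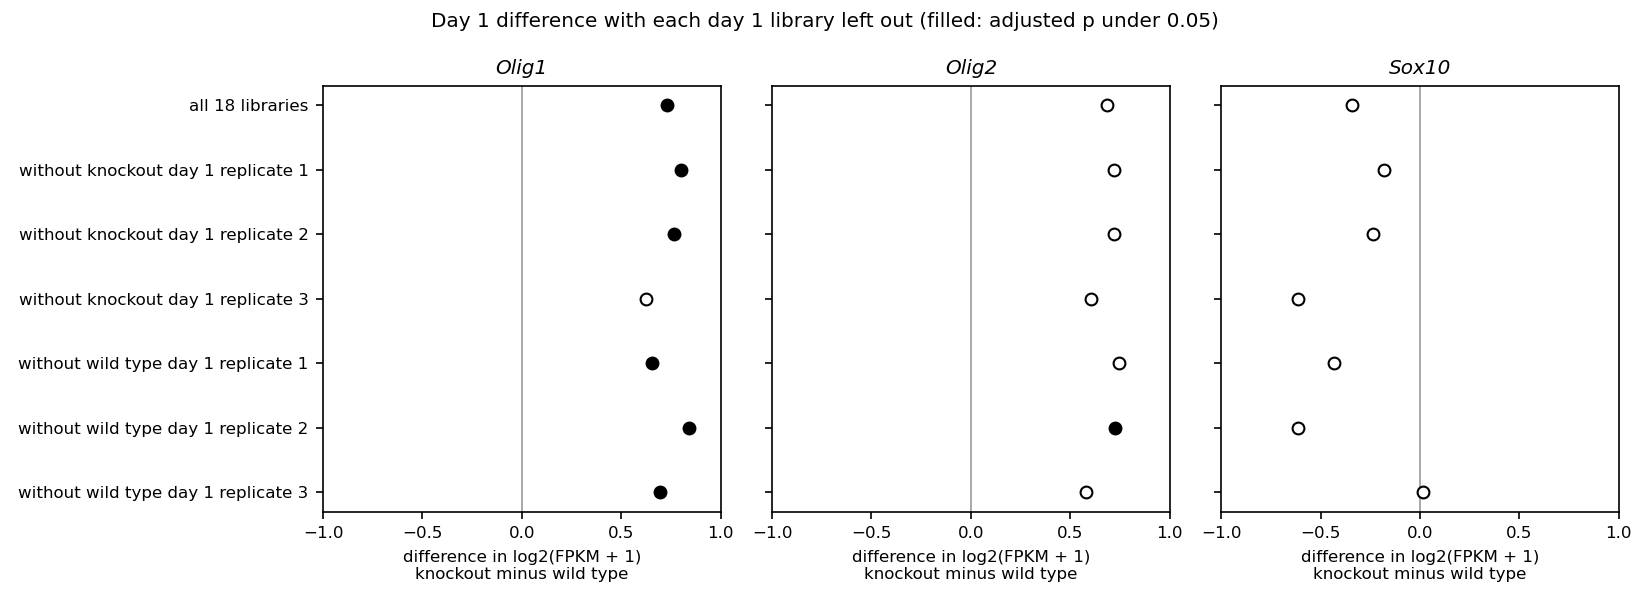
Day 1 difference in log2(FPKM + 1), knockout-labelled minus wild type (x axis), for Olig1, Olig2 and Sox10 with all 18 libraries and with each day 1 library left out in turn (rows); filled points have an adjusted p under 0.05. Olig1 stays between 0.63 and 0.84 and loses its call without knockout day 1 replicate 3, and Sox10 moves to 0.015 without wild type day 1 replicate 3.

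The plot of left-out libraries shows that the size of the Olig1 and Olig2 differences moved little and their calls more. Sox10 behaved otherwise: its day 1 values were 3.11, 3.45 and 6.46 FPKM in knockout-labelled and 4.77, 3.50 and 9.73 FPKM in wild type libraries, and the log2 difference of -0.34 (adjusted p = 0.458) became 0.015, adjusted p = 0.979 without wild type day 1 replicate 3. Sox8 measured 9.89, 9.37 and 12.4 FPKM in knockout-labelled and 12.6, 6.57 and 3.99 FPKM in wild type libraries. Its log2 difference of 0.52 (95% interval -0.0087 to 1.04, adjusted p = 0.236) passed the threshold only in the fit without wild type day 1 replicate 1 (0.90, adjusted p = 0.0461). Its size shrank to 0.18, adjusted p = 0.634 without wild type day 1 replicate 3 and to 0.064, adjusted p = 0.927 without both libraries numbered 3. Pdgfra, Cspg4 and Gpr17 overlapped between genotypes at day 1, with log2 differences of -0.25 (-0.64 to 0.15), 0.013 (-0.29 to 0.32) and 0.30 (-0.24 to 0.85; 95% intervals in brackets). Single libraries moved these values: Pdgfra to -0.046 without knockout day 1 replicate 3, Gpr17 to 0.092 without wild type day 1 replicate 1 and to 0.53 without wild type day 1 replicate 2, and Cspg4 to -0.058 without wild type day 1 replicate 3. Myrf and Nkx6-2 were near 0 FPKM in all 6 libraries, and the differences of 0.0016 and 0.017 carry little. The median over the 9 was 0.02, the same as over all genes tested. Differences were above 0 for 7 of the 9, and for 52.7% of all genes; that of Myrf turned negative with libraries scaled to one total (-0.00037) or quantile normalized (-0.017).

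At day 7 none of the 9 genes was called and none had an unadjusted p under 0.05, where 0.00749% of all genes were called by limma. Gpr17 had the largest log2 difference of the 9, at 21.8, 24.6 and 19.9 FPKM in knockout-labelled and 16.6, 16.5 and 15.9 FPKM in wild type libraries. Its groups did not overlap, with 22.1 ± 2.34 FPKM in knockout-labelled cortex 1.35-fold above 16.3 ± 0.380 FPKM in wild type cortex. The interval of the log2 difference included 0 (0.41, 95% interval -0.13 to 0.95, adjusted p = 1.000). It was the only one of the 9 without overlap, against 20.6% of all genes (9.74% higher). In the fit of the 6 day 7 libraries alone it had an unadjusted p under 0.05. The share of all genes with such a p in that fit is not reported here. Nkx2-2, under the limit for the tests, was at 0.537, 0.470 and 0.691 FPKM in knockout-labelled and 0.402, 0.339 and 0.428 FPKM in wild type libraries, again without overlap. Without that limit its log2 difference was 0.17 (95% interval 0.0061 to 0.33) and did not pass the threshold after adjustment. Olig1, whose day 1 difference was called, had a log2 difference of 0.093 at day 7 (95% interval -0.16 to 0.34, adjusted p = 1.000), and Olig2 one of 0.30 (-0.051 to 0.66). Myrf differed by 0.23 (-0.061 to 0.52) and Pdgfra by -0.0063 (-0.40 to 0.39). Positive differences were found for 7 of the 9 (8 with Pdgfra, whose sign turned under both other scalings) and for 47.4% of all genes; the median was 0.17 over the 9 and -0.01 over all genes. Of the 22 myelin genes 19 had positive differences with a median of 0.20 and none was called; Mbp had the smallest p (17.6 ± 3.25 FPKM in knockout-labelled, 9.20 ± 3.28 FPKM in wild type cortex; log2 difference 0.90, adjusted p = 0.384). The other lineage lists were less uniform: 8 of 14 further precursor genes (median 0.063) and 8 of 15 other regulators (0.0098) were above 0. So were 6 of 10 newly formed genes (0.10) and 8 of 18 signalling genes (-0.0079), none of them called. Of other cell types, 7 of 8 microglia markers (median 0.48) and 9 of 10 astrocyte markers (median 0.12) were above 0 as well, none of them called, and their part in these directions was not tested.

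At day 30 again none of the 9 was called or had an unadjusted p under 0.05 (0.0225% of all genes were called), and none was without overlap (14.9% of all genes, 9.35% higher). All 9 differences were above 0, where 55.3% of all genes were, with a median of 0.20 against 0.02 over all genes. Intervals reached 0 for each: Olig1 differed by 0.21 (-0.045 to 0.46), Nkx6-2 by 0.21 (-0.05 to 0.47) and Gpr17 by 0.20 (-0.34 to 0.75) on the log2 scale, with 95% intervals in brackets. One library set the direction for 3 genes: knockout day 30 replicate 2 held the highest Gpr17, Pdgfra and Cspg4 of the 6, at 38.7, 11.98 and 3.42 FPKM. Without it the log2 differences were -0.16 for Gpr17, -0.069 for Pdgfra and -0.12 for Cspg4. Without wild type day 30 replicate 2, which held Xist and Ddx3y together, the 9 differences stayed between 0.0049 and 0.25. Myelin genes were above 0 for 19 of 22 with a median of 0.28 and none called, and Fa2h, an enzyme of myelin lipids, had the smallest p (10.7 ± 0.669 FPKM in knockout-labelled, 7.76 ± 1.57 FPKM in wild type cortex; log2 difference 0.43, adjusted p = 1.00). Further precursor genes were above 0 for 10 of 14 (median 0.076) and newly formed genes for 9 of 10 (0.26). Other regulators were above 0 for 4 of 15 (-0.046) and signalling genes for 7 of 18 (-0.022), and no gene of these lists was called. Microglia markers were above 0 for 8 of 8 (median 0.20) and astrocyte markers for 1 of 10 (median -0.13), none of them called.

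**Figure D5:**
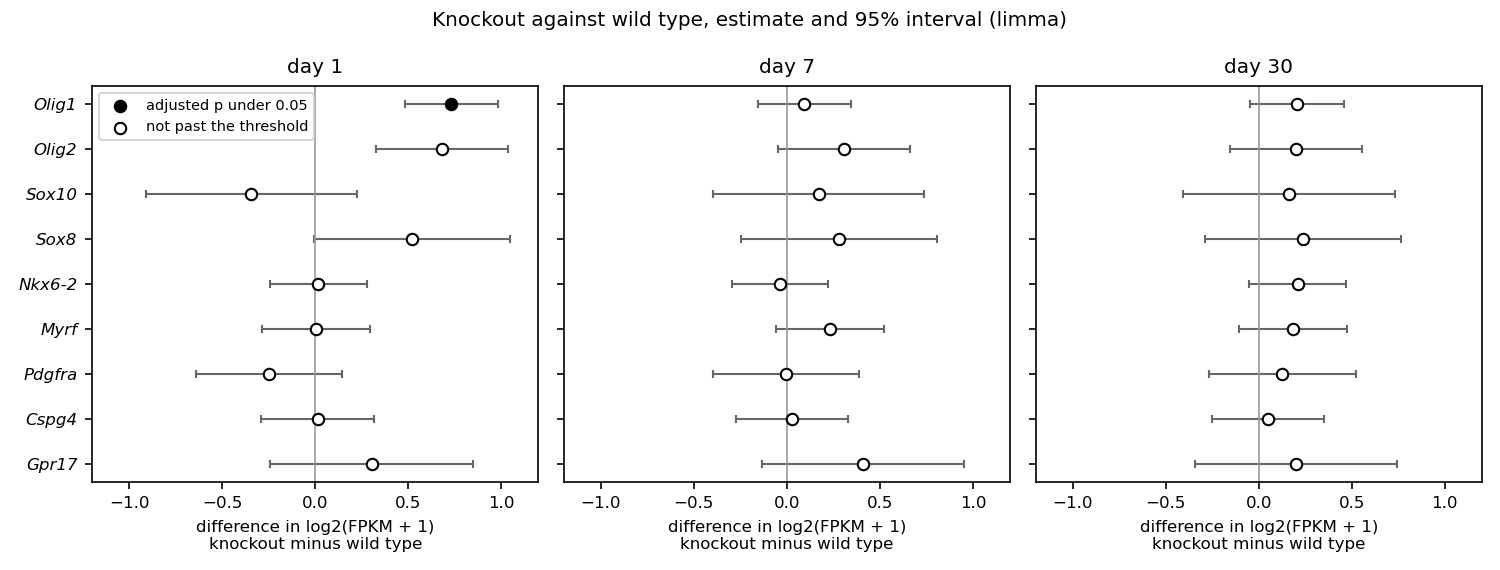
Difference in log2(FPKM + 1), knockout-labelled minus wild type (x axis), with its 95% interval from limma, for the 9 genes tested (rows) at days 1, 7 and 30 (panels); filled points have an adjusted p under 0.05. Olig1 at day 1 is the one filled point, at 0.73, and at day 30 all 9 intervals include 0.

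The plot of estimates with their intervals shows day 1 as the one day with intervals clear of 0, for Olig1 and Olig2. Averaged over the 3 days, Olig1 was 0.34 higher on the log2 scale in knockout-labelled cortex (SE 0.0684, adjusted p = 0.0867), Olig2 0.40 (adjusted p = 0.161) and Sox8 0.34 (adjusted p = 0.434). These 3 had an unadjusted p under 0.05 and none of the 9 passed the threshold, which 0.0974% of all genes passed. The share of all genes with an unadjusted p under 0.05 is not reported here, for this mean or for the interaction below. Olig1 passed it in the fit that left out wild type day 1 replicate 2 (adjusted p = 0.0163) and Olig2 without wild type day 7 replicate 3 (0.0467). Whether the genotype difference changed with age was tested by the interaction, which none of the 9 passed (0.015% of all genes did). Olig1 alone had an unadjusted p under 0.05 (F 8.26, adjusted p = 0.527). The Olig1 difference at day 7 minus that at day 1 was -0.64 on the log2 scale, so its day 1 difference was not shown to be particular to that age after adjustment. Olig1, Olig2, Sox8, Myrf, Cspg4 and Gpr17 had differences above 0 on all 3 days, 6 of 9 genes where 13.3% of all genes had. That of Myrf at day 1 turned negative under both other scalings. Those of Cspg4 were 0.013, 0.026 and 0.049, and on each day some fit without 1 library turned them negative. Without knockout day 30 replicate 2 that of Gpr17 at day 30 was -0.16.

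Across the 18 libraries, which fall into the 6 groups and share their ages, the 10 genes ran together only in part. Pearson's r of log2(FPKM + 1) was highest for Nkx6-2 and Myrf (0.93), Olig1 and Nkx2-2 (0.86) and Olig1 and Gpr17 (0.82), and lowest for Nkx6-2 and Pdgfra (-0.65). For the neighbours Olig1 and Olig2 it was 0.16, and Olig2 had its highest r among the 10 with Sox8 (0.54). Over all genes tested, the values most like Myrf were those of Fa2h, Mbp and Ugt8a, all 3 genes of myelin (r of 0.99 each), and those most like Nkx6-2 were Opalin, an oligodendrocyte membrane protein gene, Hhatl and Pvalb, the parvalbumin gene of interneurons (0.99 each). Gpr17 lay nearest to Uhmk1, Ampd3 and Gm31003 (0.97 each), and Olig1 to Agpat1 (0.96), Hacd3 (0.95) and Cacng8 (0.95). Pdgfra lay nearest to Dock9 (0.95), Cdh9 (0.93) and Dag1 (0.91), and Cspg4 to Ptprg (0.94), Apc (0.92) and Kif1a (0.91). Likeness was weaker for Sox10, with Pgm1, Gltp and Tmem176a (0.90, 0.90 and 0.89), for Sox8, with Plcl2, Sall1 and Tac1 (0.87, 0.84 and 0.83), and for Olig2, with Nudt10, Ap1s2 and Tgfa (0.81, 0.78 and 0.77). Such r mix the course over days 1, 7 and 30 with differences between genotypes and between single libraries, which were not separated. They describe likeness of values and nothing more.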

How the data were processed

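RNA of mouse cerebral cortex was measured in 18 libraries, and the deposited table gives FPKM per gene and library, computed by the authors before deposit; per the submitters' processing notes, Bowtie2, RSEM 1.3.1 and DESeq2 1.4.5 were used with build GRCm39, in roles that are not stated. FPKM is relative to a library's total, so abundant transcripts lower the FPKM of the rest. The 18 libraries totalled 313919 to 394975 FPKM; 11703 to 12780 genes reached 1 FPKM. Relative depth came from ratios of low FPKM values. FPKM was transformed as log2(FPKM + 1), which understates changes of low genes, and genes at 1 FPKM or more in at least 3 libraries were tested with limma 3.58.1 (mean-variance trend) in R 4.3.3, on the means of 6 groups, two-sided, with Benjamini-Hochberg adjustment over 13347 genes. The script was tested on simulated data with known changes. Fold changes are ratios of mean FPKM. The 10 genes, the lists and the tests were chosen with earlier results of these data known. All 10 genes were named in every comparison; of each list at most 3 genes per comparison could be named, those called with the largest log2 difference, or the 1 with the smallest p where none was called, and for each of the 10 the 3 genes with the highest Pearson r. Alg13, Ddx3y, Xist, Ifnar2, Gm52261, Pdgfrb and Rgs5 were named outside that rule, as checks of the libraries and of the neighbourhood or for the makeup of a marker sum. Some genes of the lists are not reported here. Alternatives changed the pseudocount, the FPKM limit, the scaling, the libraries fitted, the variance estimate, the replicate block and 1 library at a time. RefSeq windows (GRCm38.p6) and gene order were matched by symbol.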

Additional observations from a re-analysis of the deposited data

How the results depend on the processing

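Of 1848 single-gene differences recomputed under the alternatives, 1769 kept their sign and side of the threshold, 11 lost a call, 14 gained one and 54 changed sign; none of the sign changes touched a call. The day 1 count of genes called, knockout against wild type, was 1 and became 0 in a fit of the groups compared alone and with both day 1 libraries numbered 3 left out, a setting chosen after seeing the data, and 0 to 2 when 1 library was left out. The mean over days called 0, and 0 to 1 with 1 library left out; days 7 and 30 and the interaction called 0 in every fit run. At day 7 against day 1 the count of 5 in each genotype became 3 with a limit of 5 FPKM, under which 6 of the genes were tested, and at day 30 against day 7 the count of 3 became 1; wild type day 30 against day 7 gave 7 in a fit of its groups alone. The limit tests fewer genes by construction. The cause of the other changes was not tested, and the share of all genes called in these fits is not reported here. Signs turned, on the log2 scale, for Myrf at day 1, knockout against wild type, with libraries scaled to one total (-0.00037), quantile normalized (-0.017) or without both libraries numbered 3 (-0.046), and in that last fit for Nkx6-2 (-0.0045) and Cspg4 (-0.059). Further turns were Pdgfra at day 7 (0.025 scaled, 0.015 quantile), Sox10 over the days (0.0035 quantile), Nkx6-2 at day 7 against day 1 (-0.0056 quantile in wild type; 0.0028 with a pseudocount of 0.1 and 0.0078 scaled in knockout) and Gpr17 at day 30 against day 7 in knockout (-0.028 scaled). With 1 library left out, the ranges that crossed 0 were, knockout against wild type at day 1, Sox10 -0.61 to 0.015, Myrf -0.036 to 0.061, Cspg4 -0.058 to 0.069. At day 7 they were Pdgfra -0.10 to 0.053, Cspg4 -0.025 to 0.085. At day 30 they were Pdgfra -0.069 to 0.34, Cspg4 -0.12 to 0.18, Gpr17 -0.16 to 0.54. Over the days they were Sox10 -0.094 to 0.12, Pdgfra -0.11 to 0.027, Cspg4 -0.027 to 0.074. For wild type, day 7 against day 1, they were Olig2 -0.19 to 0.15, Sox10 -0.36 to 0.26, Sox8 -0.32 to 0.41. For wild type, day 30 against day 7, the range was Olig2 -0.21 to 0.13. For knockout, day 7 against day 1, it was Nkx6-2 -0.0079 to 0.014. For knockout, day 30 against day 7, it was Gpr17 -0.29 to 0.40. 

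The replicate numbers are not stated to pair libraries. For that reason the numbers were not taken as pairs. Same-numbered libraries of the genotypes correlated in their deviations from the group means at 0.0252 to 0.131 at day 1, 0.333 to 0.530 at day 7 and -0.336 to -0.0414 at day 30. Differently numbered libraries correlated at -0.125 to 0.0771 at day 1, -0.469 to 0.393 at day 7 and -0.344 to 0.382 at day 30. With the replicate number as a block, the counts were 1 at day 1, 0 at days 7 and 30, over the days and for the interaction, 5 at day 7 against day 1 and 3 at day 30 against day 7 in each genotype, and the same genes were called.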
